A study of Homo sapiens with 16 samples.

Results

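The collagen genes are the rows of the count table whose symbol names a collagen chain (COL, the type number, A and the chain number), and a mean of at least 10 counts over the 16 libraries was required. Of 44 such rows, 31 passed, and all 31 also passed the filter on low counts and were tested together with the other genes, 16004 of 25370 in all. Just inside the limit was COL25A1, with a mean of 12.2 counts, and just outside it COL14A1, with 4.56. The RNA came from HMC3 cells, a human line described as microglial, treated for 24 h in a medium free of serum and phenol red after a day each in charcoal-stripped serum and without serum. The 8 conditions, with 2 libraries each, were vehicle, estradiol (E2, 0.1 nM), ketamine (400 nM), (2R,6R)-HNK (400 nM), (2S,6S)-HNK (400 nM), and each of these 3 drugs at the same dose together with 0.1 nM E2. Ketamine is an anesthetic and rapid antidepressant, and the hydroxynorketamines (HNK) are its metabolites, which carry a hydroxyl group and lack the N-methyl group of ketamine; the 2 metabolites used, (2S,6S)-HNK and its counterpart (2R,6R)-HNK, are mirror images. The study asked how expression profiles respond to the drugs with and without E2, and the comparisons below ask this of the collagen genes. All libraries came from 1 cell line of low passage, and nothing in the labels tells if both libraries of a condition stem from different cultures, so p-values measure only the spread between these libraries.

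Collagens are proteins of 3 chains wound into a triple helix, and the chains of a trimer can be the products of the same or of different genes. Fibrillar types build the cables of connective tissue, type IV builds the sheet of the basement membrane, type VI beaded filaments and type VIII a hexagonal network, while FACIT collagens (fibril-associated, with interrupted helices) sit on the surface of fibrils. In brain, most collagen belongs to the basement membrane of vessels and to the meninges, and resting microglia are not known as a main source of it.

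Libraries held 55300614 to 81646165 counts, so that 1 count is a small part of 1 CPM (counts divided by the TMM library size and scaled to a common total), and the fitted common coefficient of variation between the libraries of a condition was 2.81%. The label of the line was set against marker lists. Of the 11 microglia and macrophage genes, AIF1, CX3CR1, P2RY12, TMEM119, ITGAM, PTPRC and SPI1 were at 0 to 7 counts in every library, and CD68 alone, at 17.4 to 23.4 CPM, made most of the list's sum of 20.6 to 27.8 CPM; CSF1R and TREM2, at 0.344 to 1.3 CPM, and CD14, at 1.49 to 3.9 CPM, were detected in every library. The 8 fibroblast and mesenchymal genes summed to 1960 to 2254 CPM, of which VIM, THY1 and PDGFRB held nearly all, while DCN, LUM, FAP and PRRX1 stood at 0 to 17 counts. The 6 pericyte and smooth muscle genes summed to 1370 to 2593 CPM, led by TAGLN. Of the others, CSPG4 and NOTCH3 were at 46.2 to 111 CPM, but ACTA2, MYH11 and RGS5 only at 0.904 to 2.75 CPM. The 4 epithelial genes summed to 390 to 784 CPM, led by KRT18, with KRT8 at 47.7 to 98.3 CPM but EPCAM and CDH1 at 0.16 to 3.23 CPM. The 4 endothelial genes summed to 1.46 to 3.43 CPM, with PECAM1 at 0 to 2 counts. So 7 of the 11 microglia and macrophage genes, and the fibroblast genes DCN and LUM, were at or near 0 in the libraries whose collagen genes are described here, and the astrocyte and neuron lists summed to at most 8.94 and 3.45 CPM.

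COL1A1, the α1 chain of type I collagen, was the most abundant collagen transcript, at 3589 to 5344 CPM. Per kilobase of transcript it averaged 769 CPM over the 16 libraries, followed by COL4A2 (135), COL4A1 (75.9), COL6A2 (73.7), COL8A1 (58.2), COL5A2 (54.3), COL6A1 (48.1), COL1A2 (37.6), COL18A1 (34.6), COL5A1 (26.0) and COL11A1 (17.2). COL1A1 and COL4A2 each stood clear of the next in every library, and from COL4A1 on each gene overlapped its neighbour in this order over the libraries. By class, the level per kilobase summed over members was 908 CPM for 9 fibrillar genes, 222 for 6 type IV genes, 122 for 3 type VI genes, 63.7 for the 2 type VIII genes, 35.1 for 2 multiplexins, 9.80 for 4 FACIT genes, 7.06 for COL7A1, 1.59 for 3 transmembrane collagens and 0.238 for COL26A1. The levels thus span from cable-forming type I collagen to genes near the limit of detection, and 20 of the 31 averaged at least 5 CPM. The 11 below this were COL13A1 (4.31 CPM), COL15A1 (2.57), COL11A2 (1.95), COL9A2 (1.53), COL17A1 (1.12), COL5A3 (1.01), COL6A3 (0.732), COL26A1 (0.709), COL4A3 (0.489), COL2A1 (0.444) and COL25A1 (0.185). Of the 13 rows left out, COL3A1, the chain of type III collagen that usually accompanies type I in tissue, had 0 to 6 counts per library, and COL6A5, COL9A1 and COL19A1 had 0 in all 16, which at this depth allows up to 3 counts in a library. Together the 31 genes took 0.704% to 0.707% of all counts with vehicle and up to 0.879% with E2+(2R,6R)-HNK, and COL1A1 made 48.6% to 64.1% of the collagen CPM.

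**Figure D1:**
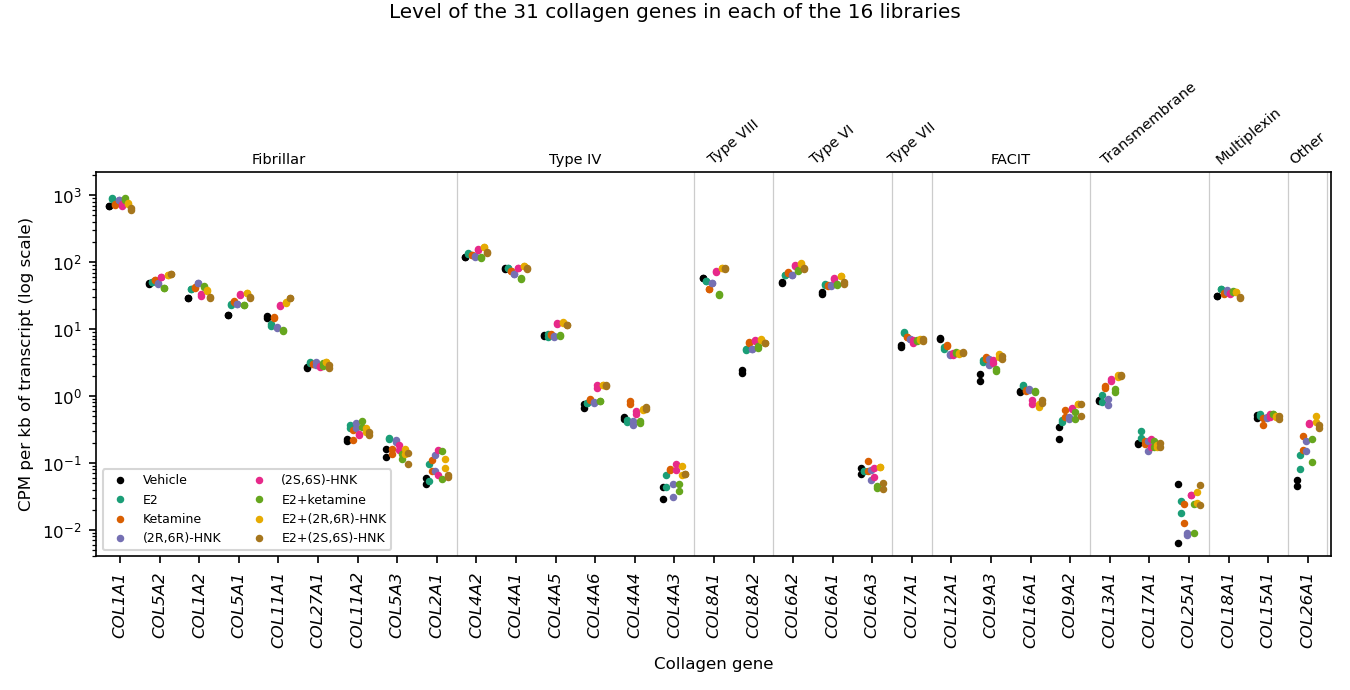
Level of each of the 31 collagen genes in CPM per kilobase of transcript (log axis), by class; every point is 1 of the 16 libraries, coloured by condition. COL1A1 averages 769, and the type IV pair COL4A2 and COL4A1 follow with COL6A2. The libraries of a gene span far less than the whole range of levels, but from COL4A1 to COL11A1 genes next in rank overlap.

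Against vehicle, more collagen genes rose than fell in each of the 7 treatments, but with a correction for GC content and length more fell than rose with (2R,6R)-HNK and E2+ketamine. COL8A2 rose the most among the 20 members of at least 5 CPM in all of them, though corrected COL1A2 was ahead of it with (2R,6R)-HNK (1.01 against 0.60 on the log2 scale) and with E2+ketamine (0.94 against 0.51). COL12A1 fell in all of them, while COL8A1 and COL11A1 rose with (2S,6S)-HNK and with E2 plus either metabolite and fell with E2, (2R,6R)-HNK and E2+ketamine; corrected, COL8A1 was higher with E2 (0.13) and (2R,6R)-HNK (0.11). A gene is called here at a Benjamini-Hochberg adjusted p under 0.05 in edgeR's quasi-likelihood test over all genes, and the share of all 16004 genes called the same way is given as the background. All 7 comparisons use the same 2 vehicle libraries. In bulk RNA, fewer cells of a type and less RNA per cell cannot be told apart. The fold changes of these libraries followed the GC content of the exons: Spearman's rho over all genes with a GC content was 0.444 to 0.770 in the 7 comparisons with vehicle, and 0.157 to 0.740 over the 31 collagen genes. Exon GC content was 53.5% in the median collagen gene, from 41.3% in COL25A1 to 66.8% in COL18A1, against 48.7% in the median gene tested. For this reason each count is followed by the one obtained after a loess correction of every library for GC content and exon length, which brought rho over the collagen genes to -0.27 to 0.10. Whether the relation with GC content lies in the libraries or in the cells was not tested. The median collagen gene had 23.0 CPM and the median gene tested 14.9, and a gene with more counts is called more easily.

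With E2 alone, 15 of the 31 genes rose (48.4%, background 29.9%) and 3 fell (9.68%, background 32.7%). The largest rises were those of COL8A2 (1.08 ± 0.06, log2 fold change ± SE) and COL9A3 (0.80 ± 0.11), and the largest falls those of COL12A1 and COL11A1, which fell by 0.49 ± 0.04 and by 0.40 ± 0.04. The median collagen gene changed by 0.36, the median of all genes by -0.0027. After the correction 10 rose (background 15.5%) and 5 fell (background 22.6%), and the collagen median was 0.11. Uncorrected, 1 called member, COL8A2, moved by 1 log2 unit or more up or down (background 1.81%).

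With ketamine, 18 rose (58.1%, background 26.8%) and 3 fell (9.68%, background 32.5%). COL26A1, a scarce transcript of a collagen with an EMI domain, rose by 2.03 ± 0.44 and COL8A2 by 1.41 ± 0.06. COL8A1 fell by 0.53 ± 0.03 and COL12A1 fell by 0.35 ± 0.04. The collagen median was 0.25 and that of all genes -0.02. Corrected, 13 rose and 8 fell (background 17.8% and 31%), with a median of 0.05. Uncorrected, there were 3 called members at a log2 fold change of at least 1, namely COL8A2, COL26A1 and COL4A3 (background 3.56%).

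(2R,6R)-HNK raised 13 collagen genes (41.9%, background 31.7%) and lowered 4 (12.9%, background 34.9%). COL26A1 rose by 1.86 ± 0.46 and COL8A2 by 1.10 ± 0.06, while COL12A1 fell by 0.80 ± 0.04 and COL11A1 fell by 0.50 ± 0.04. The median was 0.16 for the collagens and -0.02 for all genes. The correction turned the balance: 7 rose (22.6%, background 20.3%) and 10 fell (32.3%, background 25.2%), at a median of -0.05. Uncorrected, past a log2 fold change of 1 were 2 members, COL8A2 and COL26A1 (background 3.75%).

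(2S,6S)-HNK raised 20 members (64.5%, background 32.1%), and 2 fell (6.45%, background 35.8%). The rises were led by COL26A1 (2.96 ± 0.42) and COL8A2 (1.53 ± 0.06). COL12A1 fell by 0.79 ± 0.04 and COL16A1 fell by 0.51 ± 0.11. The collagen median was 0.31, against -0.03 for all genes. With the correction 17 rose and 6 fell (background 25.4% and 31.5%), and the median was 0.29. Uncorrected, at least 1 log2 unit was reached by 5 of them, COL8A2, COL26A1, COL9A2, COL4A3 and COL13A1 (background 9.08%).

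E2+ketamine raised 15 collagen genes (48.4%, background 34.3%) and lowered 6 (19.4%, background 37.4%). COL26A1 rose by 1.71 ± 0.47 and COL8A2 by 1.20 ± 0.06; COL8A1 fell by 0.80 ± 0.03 and COL6A3 fell by 0.79 ± 0.34. The median was 0.22 against -0.03. This comparison changed most with the correction, after which 3 rose (9.68%, background 24%), 15 fell (48.4%, background 28.2%) and the collagen median was -0.17. The 2 members at 1 log2 unit or more, uncorrected, were COL8A2 and COL26A1 (background 11.0%). COL26A1 was no longer called without E2+ketamine replicate 1 (1.03), and COL6A3 no longer without either E2+ketamine library or vehicle replicate 2 (-0.84 to -0.65).

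E2+(2R,6R)-HNK raised the most collagen genes without the correction, 23 of 31 (74.2%, background 33.4%), and 2 fell (6.45%, background 36.3%). COL26A1 rose by 3.17 ± 0.41 and COL8A2 by 1.58 ± 0.06, and COL12A1 fell by 0.77 ± 0.04 and COL16A1 fell by 0.69 ± 0.11. The median was 0.49, with -0.02 over all genes. Corrected, 18 rose, as many as with E2+(2S,6S)-HNK, and 6 fell (background 25.8% and 33.5%), at a median of 0.38. Without it, a log2 fold change of at least 1 was reached by 8 members, COL5A1, COL8A2, COL9A3, COL4A6, COL13A1, COL9A2, COL26A1 and COL4A3 (background 11.5%).

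E2+(2S,6S)-HNK raised 17 (54.8%, background 24%) and lowered 3 (9.68%, background 35.7%). COL26A1 (2.79 ± 0.42) and COL8A2 (1.42 ± 0.06) rose the most. COL12A1 fell by 0.70 ± 0.04 and COL16A1 fell by 0.49 ± 0.11. The median was 0.35 for the collagens and -0.06 for all genes. With the correction 18 rose and 5 fell (background 22.4% and 34.1%), with a median of 0.23. Without it, 5 members, COL8A2, COL4A6, COL13A1, COL9A2 and COL26A1, reached 1 log2 unit (background 5.85%).

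In the 7 treatments, COL5A1, COL6A1, COL6A2, COL7A1, COL8A2 and COL9A3 rose every time without the correction, and COL12A1 was the only member that fell every time. With the correction, the members that rose in all 7 were COL1A2, COL4A5 and COL8A2, and those that fell in all 7 were COL12A1 and COL18A1. COL8A2 and COL12A1 kept their directions and their calls in all 7 under both. COL2A1, COL15A1, COL17A1 and COL25A1 were called in none of the 7 without the correction. The share of all genes that rose or fell in all 7 is not given here, and the 7 comparisons share the vehicle libraries. These tallies are therefore descriptive and are not read against a background.

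**Figure D2:**
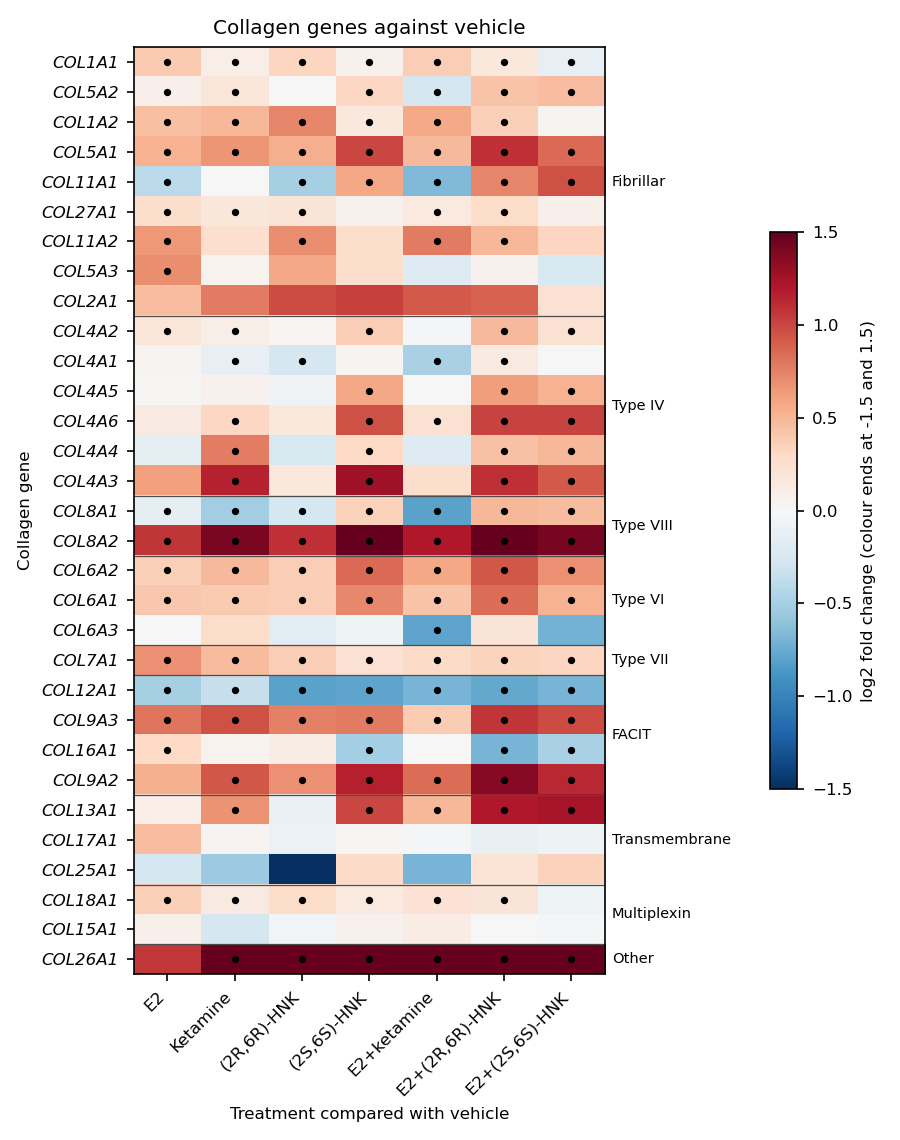
Log2 fold change of the 31 collagen genes (rows, by class) in each treatment compared with vehicle (columns), without the GC correction; a black dot marks an adjusted p under 0.05. COL8A2 is red and COL12A1 blue in all 7 columns, and COL8A1 and COL11A1 change colour between drugs.

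**Figure D3:**
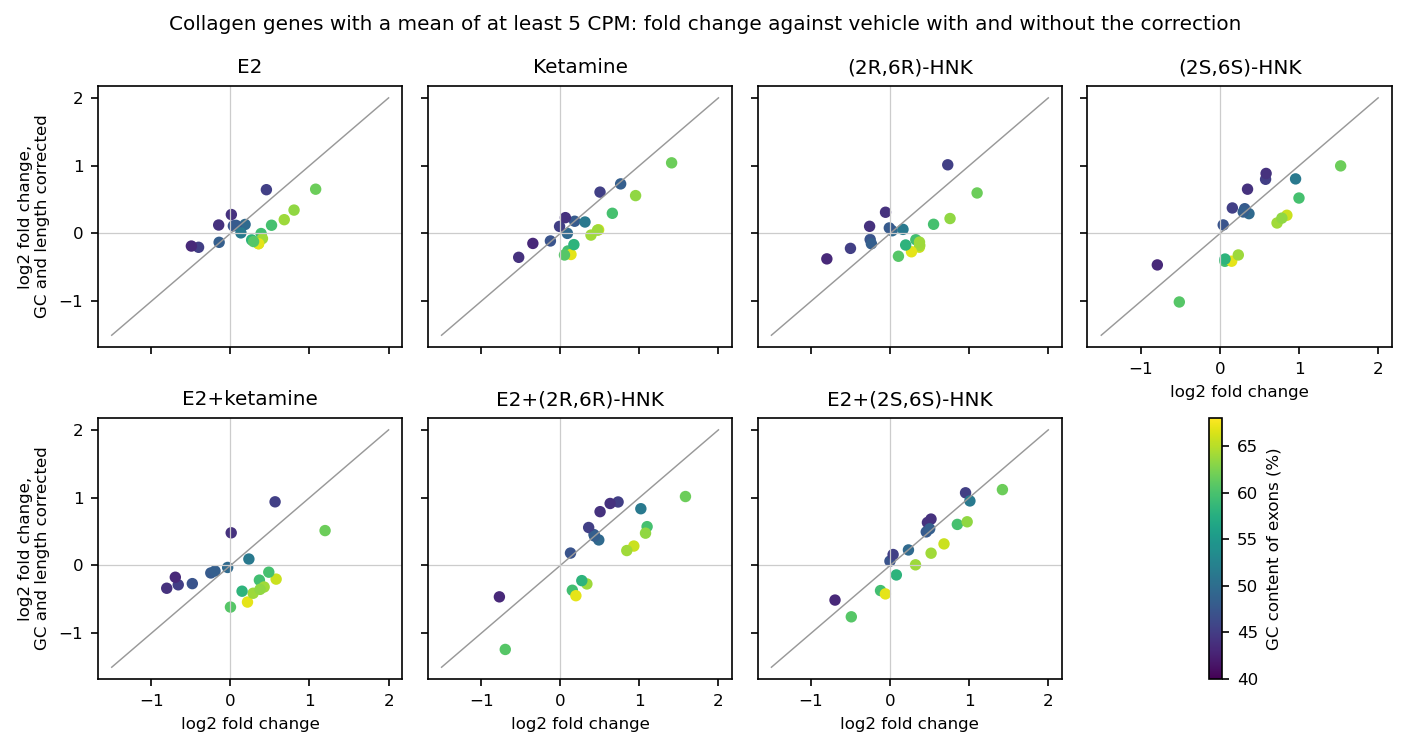
The 20 collagen genes with a mean of at least 5 CPM, with the log2 fold change against vehicle on the horizontal axis and the value corrected for GC content and length on the vertical axis; colour gives exon GC content and the grey line marks equal values. The 10 genes of highest GC content lie below the line in all 7 comparisons. With E2+ketamine, 15 of all 31 genes rose before and 3 after the correction.

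Type IV collagen genes lie in pairs, head to head: the 2 genes of a pair start close to each other and are read in opposite directions. COL4A1 and COL4A2 code for the chains of the common basement membrane network, and COL4A3, COL4A4, COL4A5 and COL4A6 for chains of more specialised membranes such as those of the kidney glomerulus. On GRCh37, the build of the count table (hg19), COL4A1 is at chr13:110801310-110959504 (minus strand) and COL4A2 at chr13:110958159-111165556 (plus), COL4A4 at chr2:227867430-228029169 (minus) and COL4A3 at chr2:228029340-228179508 (plus), and COL4A6 at chrX:107398837-107682727 (minus) and COL4A5 at chrX:107683068-107940775 (plus). These spans cover all annotated transcripts of a gene, and those of COL4A1 and COL4A2 overlap at their 5′ ends. In RefSeq on GRCh38.p14, 126 bases lie between the starts of COL4A1 and COL4A2 on chromosome 13, 418 between those of COL4A4 and COL4A3 on chromosome 2, and 379 between those of COL4A6 and COL4A5 on chromosome X. The stretches of the 2 pairs with most counts are shown. They lie before the RefSeq starts and are printed 5′ to 3′. Capitals mark a GC box (GGGCGG) or CCAAT box (CCAAT) on either strand. The whole stretch between COL4A1 and COL4A2 is given on the plus strand, chr13:110307158-110307283, and the 250 bases before COL4A6 (minus strand, chrX:108439459-108439708) and before COL4A5 (plus strand, chrX:108439588-108439837) share 121 bases.
COL4A1-COL4A2: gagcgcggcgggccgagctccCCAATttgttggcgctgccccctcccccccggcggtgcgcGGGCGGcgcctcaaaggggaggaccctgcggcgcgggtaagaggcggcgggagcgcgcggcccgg
COL4A6: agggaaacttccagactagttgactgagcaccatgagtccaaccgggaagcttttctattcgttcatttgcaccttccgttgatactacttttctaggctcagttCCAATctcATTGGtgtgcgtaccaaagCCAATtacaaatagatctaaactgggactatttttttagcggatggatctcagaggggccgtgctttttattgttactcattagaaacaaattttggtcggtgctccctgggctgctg
COL4A5: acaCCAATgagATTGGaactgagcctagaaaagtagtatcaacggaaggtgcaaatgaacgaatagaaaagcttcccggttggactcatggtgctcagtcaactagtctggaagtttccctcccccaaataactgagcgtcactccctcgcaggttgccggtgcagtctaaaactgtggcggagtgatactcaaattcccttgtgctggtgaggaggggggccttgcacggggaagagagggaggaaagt

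The stretch between COL4A1 and COL4A2 has a GC content of 80.2% and holds 1 GC box and 1 CCAAT box, which 38.6% and 25.1% of 27305 genes hold in the 126 bases before a start. The 250 bases before COL4A6 and COL4A5 have GC contents of 44% and 51.2%, with 3 and 2 CCAAT boxes and no GC box. The 2 boxes before COL4A5 lie in the shared bases and are also counted among the 3 before COL4A6. But COL4A6 has another RefSeq start, not printed, with a GC box before it. In windows of 250 bases, 37% of genes hold a CCAAT box and 46.2% a GC box. The 250 bases before COL4A4 and before COL4A3, not printed, hold 0 CCAAT boxes each, and 0 and 2 GC boxes. Of the 31 collagen genes, 24 matched a RefSeq promoter by symbol. Of these, 17 held a GC box, 8 a CCAAT box, 5 a TATA box (TATAAA, 13.0% of all genes), and 1, COL7A1, the letters TTCNNNGAA of a STAT site (8.09% of all genes). A match is a description of the letters only.

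All 6 type IV genes rose with E2+(2R,6R)-HNK, 5 with (2S,6S)-HNK and 5 with E2+(2S,6S)-HNK, 4 with ketamine, 1 with E2, 1 with E2+ketamine and 0 with (2R,6R)-HNK; 1 fell with ketamine, (2R,6R)-HNK and E2+ketamine, which was COL4A1 each time. For this and the other classes, the shares of all genes that rose, printed above for each comparison, are 24% to 34.3%, and 15.5% to 25.8% corrected, and those that fell 32.5% to 37.4%, and 22.6% to 34.1% corrected. Corrected, all 6 rose with (2S,6S)-HNK, E2+(2S,6S)-HNK and E2+(2R,6R)-HNK, 3 with ketamine, 3 with E2, 1 with E2+ketamine and 1 with (2R,6R)-HNK, and COL4A1 kept its 3 falls.

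COL4A1 was at 516 and 526 CPM with vehicle, 534 and 535 with E2, 478 and 478 with ketamine, 529 and 543 with (2S,6S)-HNK, 441 and 434 with (2R,6R)-HNK, 376 and 371 with E2+ketamine, 569 and 571 with E2+(2R,6R)-HNK, and 526 and 514 with E2+(2S,6S)-HNK. The lowest pair was that of E2+ketamine and the highest that of E2+(2R,6R)-HNK, and the libraries with E2+(2S,6S)-HNK overlapped those with vehicle. COL4A1 fell by 0.48 ± 0.02 with E2+ketamine (adjusted p = 9.38e-25, edgeR), fell by 0.25 ± 0.02 with (2R,6R)-HNK (3.48e-14) and fell by 0.12 ± 0.02 with ketamine (3.90e-06), and rose by 0.13 ± 0.02 with E2+(2R,6R)-HNK (1.20e-06). COL4A2 was at 775 and 761 CPM with vehicle, 863 and 885 with E2, 819.8 and 816 with ketamine, 968 and 1014 with (2S,6S)-HNK, 789.6 and 775 with (2R,6R)-HNK, 736 and 764 with E2+ketamine, 1068 and 1086 with E2+(2R,6R)-HNK, and 924 and 880.5 with E2+(2S,6S)-HNK. Its libraries with (2R,6R)-HNK and with E2+ketamine overlapped those with vehicle, and the other 5 treatments lay above, with E2+(2R,6R)-HNK and (2S,6S)-HNK on top. COL4A2 rose by 0.49 ± 0.02 with E2+(2R,6R)-HNK (edgeR adjusted p = 2.37e-24) and by 0.37 ± 0.02 with (2S,6S)-HNK (1.91e-19), and by 0.09 ± 0.02 to 0.23 ± 0.02 with ketamine, E2 and E2+(2S,6S)-HNK. Corrected, the rise with ketamine was gone (0.0015, not called), and the other 4 ran from 0.13 to 0.38 and were called. Per kilobase, the ratio of COL4A2 to COL4A1 was 1.50 ± 0.0382 with vehicle (mean ± SD, n = 2), the lowest of the 8 conditions, and 2.04 ± 0.0751 with E2+ketamine, the highest. In all 7 treatments both libraries had a higher ratio than either vehicle library. COL4A2 has a slightly higher GC content (49.6%) than COL4A1 (47.3%). Corrected, COL4A2 was above COL4A1 in all 7 treatments too, but with E2 the values were close (0.13 and 0.11), while with E2+ketamine they stayed apart (-0.03 and -0.27).

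COL4A5 was at 51.7 and 53.3 CPM with vehicle, 55.6 and 50.2 with E2, 53.8 and 56.1 with ketamine, 76.6 and 80.7 with (2S,6S)-HNK, 50.2 and 50.7 with (2R,6R)-HNK, 51.6 and 54.1 with E2+ketamine, 82.3 and 80.3 with E2+(2R,6R)-HNK, and 74.2 and 76.1 with E2+(2S,6S)-HNK. With (2S,6S)-HNK, E2+(2S,6S)-HNK and E2+(2R,6R)-HNK both libraries lay above all other libraries, and those of E2 and E2+ketamine overlapped vehicle. The rises were 0.58 ± 0.04, 0.52 ± 0.04 and 0.63 ± 0.04 in this order, with adjusted p-values of 5.14e-17, 5.03e-15 and 1.41e-18 in edgeR. Corrected for GC content and length, its 7 log2 fold changes ran from 0.23 to 0.91, with 7 rises and 0 falls past the test. COL4A6 was at 4.45 and 5.07 CPM with vehicle, 5.22 and 5.21 with E2, 5.82 and 6.00 with ketamine, 9.82 and 8.65 with (2S,6S)-HNK, 5.20 and 5.47 with (2R,6R)-HNK, 5.56 and 5.63 with E2+ketamine, 9.62 and 9.66 with E2+(2R,6R)-HNK, and 9.61 and 9.53 with E2+(2S,6S)-HNK. The same 3 treatments stood above every other library in this partner gene too, and the vehicle pair was the lowest. COL4A6 rose by 0.96 ± 0.10, 1.01 ± 0.10 and 1.02 ± 0.10 in the same order (largest edgeR adjusted p = 1.06e-11), which lies above COL4A5 each time. Corrected, COL4A5 was ahead in 6 of the 7 treatments, among them (2S,6S)-HNK (0.81 for COL4A6 and 0.89 for COL4A5), E2+(2R,6R)-HNK (0.84 and 0.91) and E2+ketamine (0.10 and 0.48), and COL4A6 stayed above with E2+(2S,6S)-HNK alone (0.95 and 0.68). Its smaller rises with ketamine (0.31 ± 0.10) and E2+ketamine (0.23 ± 0.11, edgeR adjusted p = 0.0499) were not called with the correction, nor without vehicle replicate 1 (0.22 and 0.14), and the latter not without either E2+ketamine library (0.22 to 0.24) or with the replicate block (block-adjusted p = 0.0522). The ratio of COL4A5 to COL4A6 per kilobase was 11.3 ± 0.797 with vehicle and 8.04 ± 0.189 with E2+(2S,6S)-HNK (mean ± SD, n = 2).

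COL4A4 was at 4.79 and 4.53 CPM with vehicle, 4.42 and 4.02 with E2, 7.46 and 8.37 with ketamine, 5.37 and 6.06 with (2S,6S)-HNK, 3.71 and 4.25 with (2R,6R)-HNK, 4.19 and 3.96 with E2+ketamine, 6.20 and 6.41 with E2+(2R,6R)-HNK, and 6.80 and 6.38 with E2+(2S,6S)-HNK. Ketamine gave the highest pair, E2+(2S,6S)-HNK and E2+(2R,6R)-HNK the next, and the libraries with E2, (2R,6R)-HNK and E2+ketamine lay below vehicle without passing the test. The rise was 0.76 ± 0.11 with ketamine (edgeR adjusted p = 2.78e-08), 0.44 ± 0.11 with E2+(2R,6R)-HNK, 0.50 ± 0.11 with E2+(2S,6S)-HNK and 0.29 ± 0.12 with (2S,6S)-HNK, the last of which was not called without (2S,6S)-HNK replicate 2 (0.20) or vehicle replicate 2 (0.25). Its partner COL4A3 was scarce, at 0.229 and 0.352 CPM with vehicle, and was called as a rise with the same 4 treatments, by 1.15 ± 0.40 with ketamine, 1.27 ± 0.41 with (2S,6S)-HNK, 1.09 ± 0.40 with E2+(2R,6R)-HNK and 0.91 ± 0.41 with E2+(2S,6S)-HNK (edgeR adjusted p = 0.04996; 0.0546 with the replicate block, which ends this call). None of these calls held with each library left out: without vehicle replicate 1 the values were 0.87, 0.99, 0.81 and 0.63 in the same order, and the call was also lost without ketamine replicate 2 (1.11), without E2+(2R,6R)-HNK replicate 1 (0.87), and, with E2+(2S,6S)-HNK, without vehicle replicate 2 (1.25) or either of its own libraries (0.90 and 0.92). Exons of COL4A3 overlap those of MFF-DT on the opposite strand by 838 bases, and whether the counting used strand is not given in the sources used here.

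**Figure D4:**
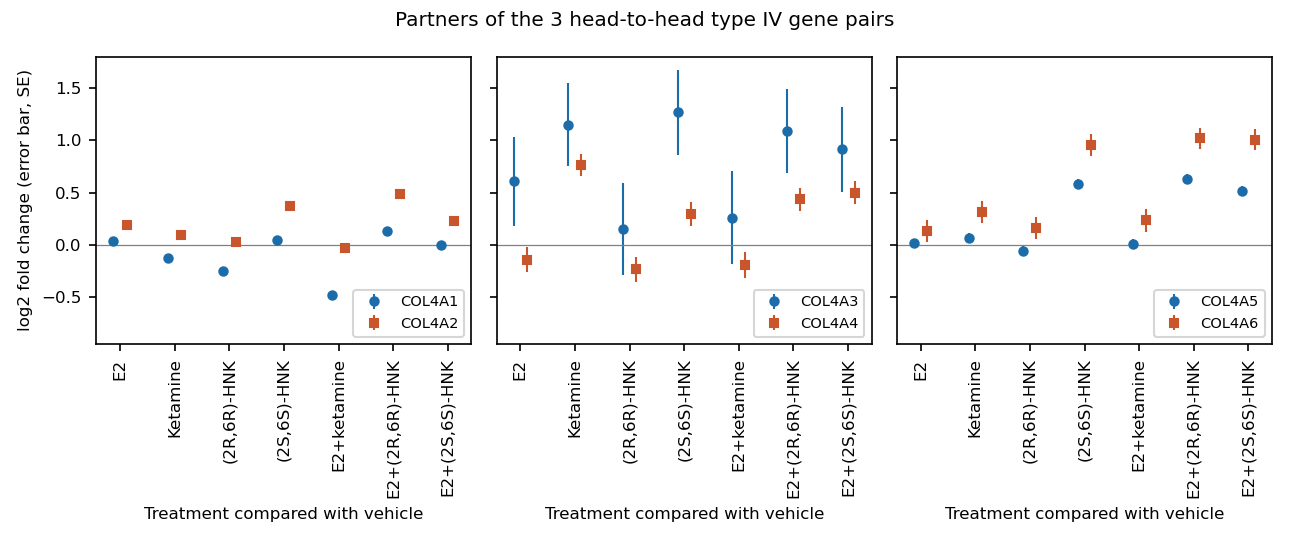
Log2 fold change against vehicle (point or square, bar for SE) of both genes of each head-to-head type IV pair, for the 7 treatments. COL4A2 lies above COL4A1 in every treatment, COL4A6 lies above COL4A5 in these values without the GC correction, and the bars of COL4A3 are wide because it has 14 to 55 counts per library.

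Among the 9 fibrillar genes, 7 rose with E2 and 7 with E2+(2R,6R)-HNK, 5 with each of ketamine, (2R,6R)-HNK, (2S,6S)-HNK and E2+ketamine, and 3 with E2+(2S,6S)-HNK. There were 2 falls with E2+ketamine, 1 each with E2, E2+(2S,6S)-HNK and (2R,6R)-HNK, and 0 with the other 3. Corrected, 4 genes rose with (2S,6S)-HNK, 4 with each of its combination with E2, ketamine alone and E2+(2R,6R)-HNK, 3 with E2, 3 with (2R,6R)-HNK and 1 with E2+ketamine. Corrected falls numbered 6 with E2+ketamine, 3 with (2R,6R)-HNK, 1 with E2 and 2 with each of the others. COL1A1 (chr17:48261462-48278993, minus strand, GRCh37) and COL1A2 (chr7:94024207-94060539, plus strand) give the α1 and α2 chains of type I collagen, which joins 2 of the former with 1 of the latter. COL1A1 was at 4040 and 4049 CPM with vehicle, 5276 and 5313 with E2, 4280 and 4366 with ketamine, 4034 and 4414 with (2S,6S)-HNK, 5054 and 5082 with (2R,6R)-HNK, 5087 and 5344 with E2+ketamine, 4434 and 4561 with E2+(2R,6R)-HNK, and 3850 and 3589 with E2+(2S,6S)-HNK. E2, (2R,6R)-HNK and E2+ketamine gave the highest libraries, E2+(2S,6S)-HNK lay below vehicle, and with (2S,6S)-HNK 1 library was above and the other just below vehicle. The rise was 0.39 ± 0.02 with E2 (edgeR adjusted p = 2.47e-19), 0.37 ± 0.02 with E2+ketamine and 0.33 ± 0.02 with (2R,6R)-HNK, and COL1A1 fell by 0.12 ± 0.02 with E2+(2S,6S)-HNK. The rise of 0.06 ± 0.02 with (2S,6S)-HNK (edgeR adjusted p = 0.0208) turned to -0.0054 without (2S,6S)-HNK replicate 2 and was not called without either vehicle library (0.06). The correction moved the range of COL1A1 to -0.41 to -0.00088 on the log2 scale, the number of called rises being 0 and of called falls 6. The GC content of its exons is 59.5%. COL1A2, of 45.3% GC, was at 146 and 149.5 CPM with vehicle, 202 and 202 with E2, 213 and 205 with ketamine, 159.6 and 169 with (2S,6S)-HNK, 245 and 244 with (2R,6R)-HNK, 213 and 223 with E2+ketamine, 185 and 193 with E2+(2R,6R)-HNK, and 154 and 149 with E2+(2S,6S)-HNK. The pair with (2R,6R)-HNK was the highest, every treatment but E2+(2S,6S)-HNK stood clear of vehicle, and that one overlapped it. It rose by 0.73 ± 0.03 with (2R,6R)-HNK (edgeR adjusted p = 2.74e-26), by 0.57 ± 0.03 with E2+ketamine and by 0.16 ± 0.03 with (2S,6S)-HNK, the smallest called rise. After the GC and length correction, COL1A2 rose in 7 and fell in 0 of the 7 comparisons, at 0.16 to 1.01. The ratio of COL1A1 to COL1A2 per kilobase was 23.5 ± 0.415 with vehicle (mean ± SD, n = 2), 22 ± 0.513 with (2S,6S)-HNK, 17.8 ± 0.127 with (2R,6R)-HNK and 17.8 ± 0.724 with ketamine. The transcript of the α1 chain was thus in excess in every library, far beyond the chain ratio of the trimer, and the excess was smaller with each treatment than with vehicle. These ratios are without the correction. Corrected, the changes of COL1A1 and COL1A2 lay further apart, at -0.41 and 0.38 with (2S,6S)-HNK (0.06 and 0.16 before). With E2 they were -0.00088 and 0.65 (0.39 and 0.46 before).

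COL5A1 and COL5A2 give the chains of type V collagen, which co-assembles with type I and limits fibril width. COL5A1 (chr9:137533649-137736689, plus strand, GRCh37) was at 139 and 135 CPM with vehicle, 199 and 194 with E2, 215 and 218 with ketamine, 270 and 278 with (2S,6S)-HNK, 200.2 and 201 with (2R,6R)-HNK, 190.3 and 194 with E2+ketamine, 296 and 291 with E2+(2R,6R)-HNK, and 252 and 243 with E2+(2S,6S)-HNK. The vehicle libraries were the lowest, all 7 treatments stood clear of them, and E2+(2R,6R)-HNK and (2S,6S)-HNK were the highest. The rise was 1.10 ± 0.03 with E2+(2R,6R)-HNK (edgeR adjusted p = 1.70e-35), 1.0 ± 0.03 with (2S,6S)-HNK and 0.85 ± 0.03 with E2+(2S,6S)-HNK, and 0.49 ± 0.03 to 0.66 ± 0.03 in the other 4 treatments. The corrected log2 fold changes of COL5A1 lay between -0.10 and 0.61, with 6 called as rises and 1 as falls. COL5A2 (chr2:189896624-190090038, minus strand) was at 337 and 324 CPM with vehicle, 346 and 349 with E2, 375 and 375 with ketamine, 412 and 409 with (2S,6S)-HNK, 329.6 and 327 with (2R,6R)-HNK, 276 and 281 with E2+ketamine, 443 and 446 with E2+(2R,6R)-HNK, and 456 and 451 with E2+(2S,6S)-HNK. E2+ketamine was below vehicle, (2R,6R)-HNK lay within the range of vehicle, and the rest were above, with E2+(2S,6S)-HNK and E2+(2R,6R)-HNK on top. COL5A2 fell by 0.25 ± 0.02 with E2+ketamine (edgeR adjusted p = 2.97e-13) and rose by 0.46 ± 0.02 with E2+(2S,6S)-HNK and by 0.43 ± 0.02 with E2+(2R,6R)-HNK. Its rise with E2 (0.07 ± 0.02) was not called without E2 replicate 2 (0.07) or vehicle replicate 2 (0.04). The ratio of COL5A2 to COL5A1 per kilobase was 2.98 ± 0.0183 with vehicle and 1.79 to 2.27 in the 7 treatments (means of 2 libraries), without the correction. COL5A1 has 59.7% GC and COL5A2 47.9%. Corrected, the changes of COL5A1 and COL5A2 were close with E2 (0.12 and 0.12) and E2+ketamine (-0.10 and -0.11) and furthest apart with (2S,6S)-HNK (0.52 and 0.37).

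COL11A1 (chr1:103342023-103574428, minus strand, GRCh37) gives the α1 chain of type XI collagen, a fibril-starting collagen of cartilage. It was at 106 and 113 CPM with vehicle, 86.1 and 80.0 with E2, 110.2 and 108 with ketamine, 165 and 163 with (2S,6S)-HNK, 76.4 and 78.8 with (2R,6R)-HNK, 67.4 and 71.6 with E2+ketamine, 182 and 182 with E2+(2R,6R)-HNK, and 212 and 213 with E2+(2S,6S)-HNK. (2S,6S)-HNK, E2+(2S,6S)-HNK and E2+(2R,6R)-HNK lay above vehicle, E2, (2R,6R)-HNK and E2+ketamine below it, and ketamine overlapped it. COL11A1 rose by 0.95 ± 0.03 with E2+(2S,6S)-HNK (edgeR adjusted p = 4.16e-29), 0.58 ± 0.03 with (2S,6S)-HNK and 0.73 ± 0.03 with E2+(2R,6R)-HNK. It fell by 0.66 ± 0.04 with E2+ketamine (2.80e-22), fell by 0.50 ± 0.04 with (2R,6R)-HNK and fell by 0.40 ± 0.04 with E2. Corrected for GC content and length, its 7 log2 fold changes ran from -0.28 to 1.07, with 4 rises and 3 falls past the test. COL27A1, another fibrillar collagen of cartilage, was at 20.3 and 21.1 CPM with vehicle, 24.6 and 25.3 with E2, 23.5 and 23.2 with ketamine, 21.9 and 21.4 with (2S,6S)-HNK, 22.7 and 24.8 with (2R,6R)-HNK, 21.7 and 24.2 with E2+ketamine, 24.8 and 25.2 with E2+(2R,6R)-HNK, and 22.8 and 20.8 with E2+(2S,6S)-HNK. These values span a narrow range, with E2 and E2+(2R,6R)-HNK highest and E2+(2S,6S)-HNK overlapping vehicle. Its rises were 0.27 ± 0.06 with E2, 0.27 ± 0.06 with E2+(2R,6R)-HNK, 0.20 ± 0.06 with (2R,6R)-HNK, 0.17 ± 0.06 with ketamine and 0.15 ± 0.06 with E2+ketamine, and the last 3 lost their call with some single libraries left out: vehicle replicate 1 (0.17, 0.15 and 0.12), (2R,6R)-HNK replicate 2 (0.14), ketamine replicate 1 (0.16), and, for E2+ketamine, E2+ketamine replicate 2 (0.07) and vehicle replicate 2 (0.17). The correction moved the range of COL27A1 to -0.38 to -0.09 on the log2 scale, the number of called rises being 0 and of called falls 6. Of the scarce fibrillar genes, COL11A2 was at 1.49 and 1.36 CPM with vehicle and rose with E2 (0.65 ± 0.20), (2R,6R)-HNK (0.70 ± 0.20), E2+ketamine (0.78 ± 0.20) and E2+(2R,6R)-HNK (0.50 ± 0.20), but in none of the 7 after the correction; the last of these was not called without vehicle replicate 2 (0.43) or E2+(2R,6R)-HNK replicate 1 (0.40). COL5A3 was at 0.997 and 0.772 CPM with vehicle and rose with E2 (0.69 ± 0.26, edgeR adjusted p = 0.0195) only, and not without vehicle replicate 2 (0.52) or either E2 library (0.67 and 0.72); corrected, that rise was not called (0.25) and COL5A3 fell with E2+ketamine (-0.88). COL2A1, the chain of cartilage type II collagen, at 15 to 52 counts per library, was called in none.

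Type VIII is a short-chain collagen of vessel walls and of the membrane under the corneal endothelium, and its chains come from COL8A1 (chr3:99357319-99518070, plus strand, GRCh37) and COL8A2 (chr1:36560840-36590823, minus strand). COL8A2 was at 10.4 and 11.5 CPM with vehicle, 22.9 and 23.5 with E2, 28.8 and 29.5 with ketamine, 31.1 and 32.1 with (2S,6S)-HNK, 23.4 and 23.7 with (2R,6R)-HNK, 25.6 and 24.7 with E2+ketamine, 32.5 and 33.3 with E2+(2R,6R)-HNK, and 29.4 and 29.4 with E2+(2S,6S)-HNK. The 2 vehicle libraries were the lowest by far, all treatments stood clear of them, and E2+(2R,6R)-HNK, (2S,6S)-HNK, E2+(2S,6S)-HNK and ketamine were the highest. COL8A2 rose 2.11-fold with E2 (1.08 ± 0.06, edgeR adjusted p = 2.05e-20), 2.14-fold with (2R,6R)-HNK, 2.29-fold with E2+ketamine, 2.65-fold with ketamine, 2.68-fold with E2+(2S,6S)-HNK, 2.88-fold with (2S,6S)-HNK and 3.0-fold with E2+(2R,6R)-HNK (1.58 ± 0.06, 3.37e-28). Corrected for GC content and length, its 7 log2 fold changes ran from 0.51 to 1.12, with 7 rises and 0 falls past the test. COL8A1 was at 317 and 319 CPM with vehicle, 289 and 285 with E2, 221 and 220.3 with ketamine, 398 and 411 with (2S,6S)-HNK, 266 and 265 with (2R,6R)-HNK, 185 and 178 with E2+ketamine, 445 and 456 with E2+(2R,6R)-HNK, and 447 and 434 with E2+(2S,6S)-HNK. E2, ketamine, (2R,6R)-HNK and E2+ketamine lay below vehicle, and (2S,6S)-HNK, E2+(2S,6S)-HNK and E2+(2R,6R)-HNK above it, with no overlap. COL8A1 fell by 0.80 ± 0.03 with E2+ketamine (edgeR adjusted p = 2.33e-31), fell by 0.53 ± 0.03 with ketamine, fell by 0.26 ± 0.03 with (2R,6R)-HNK and fell by 0.15 ± 0.03 with E2, and it rose by 0.35 ± 0.03 with (2S,6S)-HNK, by 0.47 ± 0.03 with E2+(2S,6S)-HNK and by 0.50 ± 0.03 with E2+(2R,6R)-HNK. Corrected, the values with E2 and (2R,6R)-HNK turned to 0.13 and 0.11, and those with ketamine and E2+ketamine stayed below 0 (-0.35 and -0.34). COL8A1 has 44% GC and COL8A2 61.7%. The ratio of COL8A1 to COL8A2 per kilobase, without the correction, was 24.6 ± 1.62 with vehicle (mean ± SD, n = 2) and from 6.12 ± 0.00519 with E2+ketamine to 12.7 ± 0.273 with E2+(2S,6S)-HNK, so COL8A1 remained the more abundant transcript in every library. Corrected, the changes of COL8A1 and COL8A2 lay closer, at -0.34 and 0.51 with E2+ketamine (-0.80 and 1.20 before). With E2 they were 0.13 and 0.65 (-0.15 and 1.08 before).

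**Figure D5:**
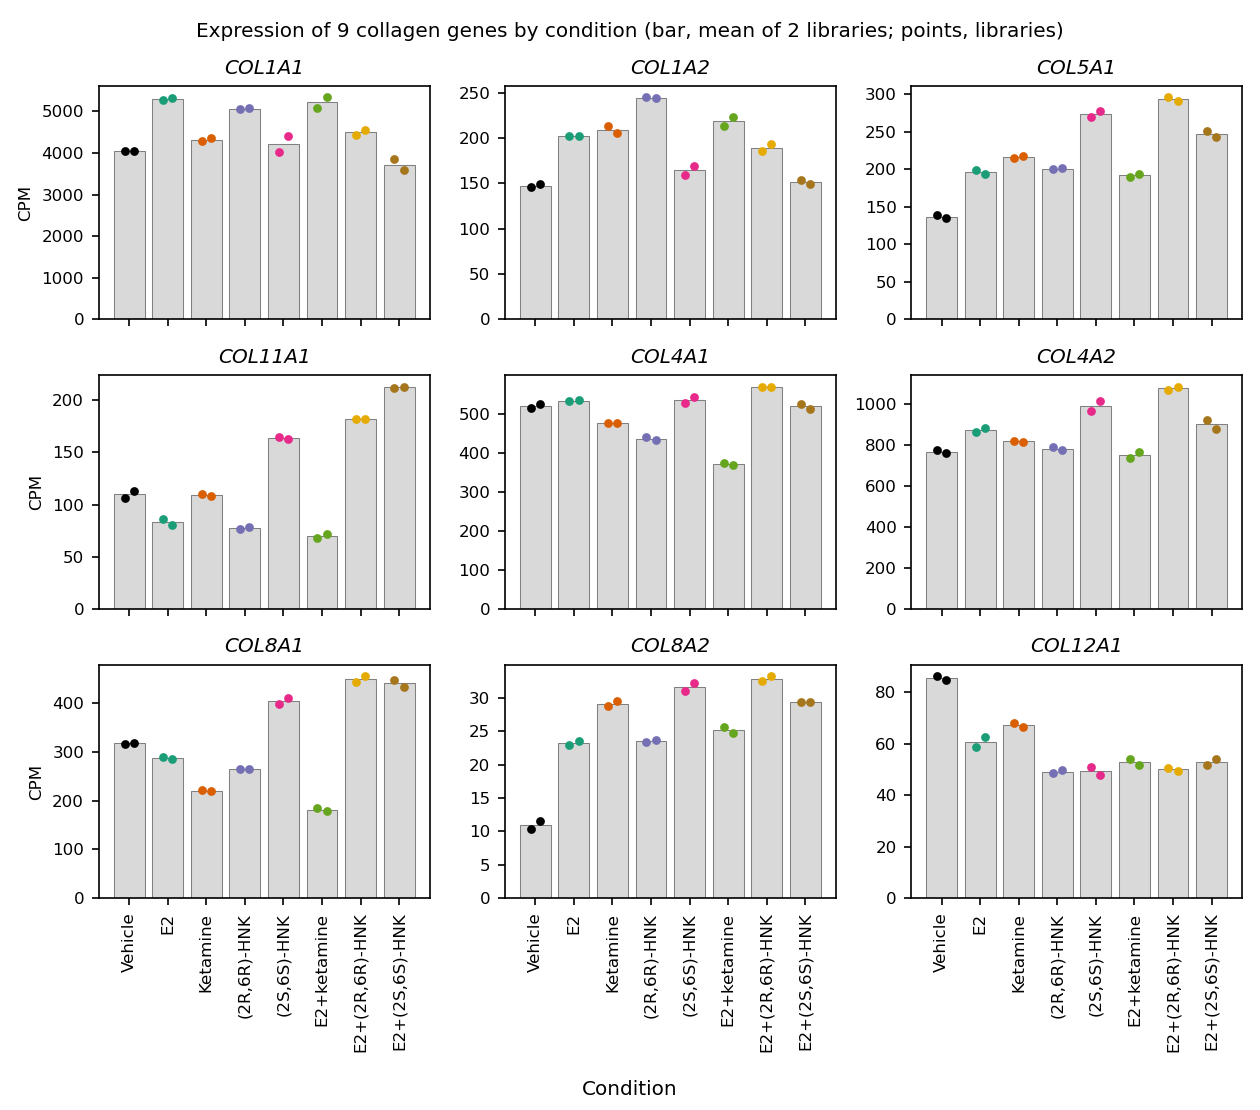
CPM of 9 collagen genes in the 8 conditions; the bar is the mean of 2 libraries, the points are the libraries and every axis starts at 0. COL8A2 is lowest and COL12A1 highest with vehicle (10.4 and 11.5, and 86.3 and 84.7 CPM), whereas COL11A1 and COL8A1 lie on both sides of vehicle.

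Type VI collagen forms beaded filaments around cells from an α1, an α2 and a larger chain, usually α3. COL6A1 (chr21:47401684-47424964) and COL6A2 (chr21:47518026-47552762) lie on the plus strand of the same chromosome (GRCh37). COL6A1 was at 148 and 142 CPM with vehicle, 188 and 196 with E2, 188 and 192 with ketamine, 240.5 and 238 with (2S,6S)-HNK, 190.2 and 186 with (2R,6R)-HNK, 192 and 198 with E2+ketamine, 259 and 261 with E2+(2R,6R)-HNK, and 216 and 199 with E2+(2S,6S)-HNK. Vehicle was the lowest, no treatment overlapped it, and E2+(2R,6R)-HNK and (2S,6S)-HNK were the highest. COL6A2 was at 176 and 169 CPM with vehicle, 219 and 222 with E2, 242 and 241 with ketamine, 304 and 316 with (2S,6S)-HNK, 223 and 223 with (2R,6R)-HNK, 252 and 264 with E2+ketamine, 327 and 330.5 with E2+(2R,6R)-HNK, and 285 and 268 with E2+(2S,6S)-HNK. The order was much the same, with E2+(2R,6R)-HNK on top, then (2S,6S)-HNK and E2+(2S,6S)-HNK, and vehicle lowest. COL6A1 rose by 0.37 ± 0.03 with (2R,6R)-HNK to 0.84 ± 0.03 with E2+(2R,6R)-HNK, and COL6A2 by 0.36 ± 0.03 with E2 to 0.93 ± 0.03 with E2+(2R,6R)-HNK, the largest adjusted p of the 14 tests being 3.75e-15 in edgeR. The corrected log2 fold changes of COL6A1 lay between -0.32 and 0.22, with 3 called as rises and 3 as falls. After the GC and length correction, COL6A2 rose in 4 and fell in 3 of the 7 comparisons, at -0.20 to 0.32. With 64.0% and 65.8% GC they are among the collagen genes richest in GC. The ratio of COL6A2 to COL6A1 per kilobase stayed between 1.4 with E2 and 1.63 with E2+(2S,6S)-HNK (means of 2 libraries), the least varied of the ratios given here. COL6A3, the usual larger chain, was at 0.719 and 0.873 CPM with vehicle and at 26 to 96 counts in all libraries, far below its partners, and the other genes for such a chain, COL6A5 and COL6A6, had at most 9 counts. COL6A3 fell with E2+ketamine (-0.79 ± 0.34, edgeR adjusted p = 0.0346), not after the correction, and was called in no other comparison with vehicle. Without E2+ketamine replicate 1, E2+ketamine replicate 2 or vehicle replicate 2 it was not called (-0.84, -0.75 and -0.65).

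COL7A1 (chr3:48601506-48632762, minus strand, GRCh37), which forms the anchoring fibrils of skin, was at 52.7 and 49.5 CPM with vehicle, 79.8 and 84.2 with E2, 70.6 and 71.2 with ketamine, 57.7 and 62.3 with (2S,6S)-HNK, 66.6 and 65.7 with (2R,6R)-HNK, 62.2 and 62.6 with E2+ketamine, 63.7 and 65.5 with E2+(2R,6R)-HNK, and 65.5 and 62.2 with E2+(2S,6S)-HNK. E2 gave the highest pair, ketamine the next, and all treatments stood above vehicle. It rose by 0.68 ± 0.04 with E2 (edgeR adjusted p = 1.41e-19), 0.47 ± 0.04 with ketamine and 0.23 ± 0.04 with (2S,6S)-HNK, the smallest of the 7. The correction moved the range of COL7A1 to -0.41 to 0.20 on the log2 scale, the number of called rises being 1 and of called falls 4. COL18A1 (chr21:46825080-46933634, plus strand), a multiplexin of basement membranes whose end fragment is endostatin, was at 168 and 166 CPM with vehicle, 212 and 216 with E2, 182 and 185 with ketamine, 181 and 189.5 with (2S,6S)-HNK, 206 and 197 with (2R,6R)-HNK, 191 and 197 with E2+ketamine, 192 and 191 with E2+(2R,6R)-HNK, and 166 and 155 with E2+(2S,6S)-HNK. E2 gave the highest pair, 1 library of (2R,6R)-HNK came next, and E2+(2S,6S)-HNK was at or just below vehicle without passing the test. COL18A1 rose by 0.36 ± 0.03 with E2 and by 0.14 ± 0.03 with ketamine, the smallest of 6 called rises (edgeR adjusted p = 1.28e-04). After the GC and length correction, COL18A1 rose in 0 and fell in 7 of the 7 comparisons, at -0.54 to -0.15. It has the highest GC content of the members, 66.8%, and its exons overlap those of SLC19A1 on the opposite strand by 1563 bases. The other multiplexin, COL15A1, was at 1.90 to 2.85 CPM over the 16 libraries and was called in none of the 7 comparisons, with log2 fold changes of -0.25 to 0.12, and in 1 after the correction, a fall with ketamine (-0.45).

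COL12A1 (chr6:75794042-75915983, minus strand, GRCh37), a FACIT collagen that lies along type I fibrils, was at 86.3 and 84.7 CPM with vehicle, 58.8 and 62.8 with E2, 68.2 and 66.3 with ketamine, 50.9 and 47.9 with (2S,6S)-HNK, 48.6 and 49.7 with (2R,6R)-HNK, 53.9 and 51.6 with E2+ketamine, 50.7 and 49.6 with E2+(2R,6R)-HNK, and 51.6 and 54.0 with E2+(2S,6S)-HNK. The vehicle libraries were the highest, ketamine came next, and no treatment overlapped vehicle. COL12A1 fell by 0.80 ± 0.04 with (2R,6R)-HNK (edgeR adjusted p = 1.70e-22), fell by 0.79 ± 0.04 with (2S,6S)-HNK, fell by 0.77 ± 0.04 with E2+(2R,6R)-HNK and fell by 0.35 ± 0.04 with ketamine, the smallest of the 7. Corrected for GC content and length, its 7 log2 fold changes ran from -0.51 to -0.15, with 0 rises and 7 falls past the test. Its GC content is 43.2%. COL9A3, a chain of the FACIT type IX collagen of cartilage, was at 5.31 and 4.18 CPM with vehicle, 8.12 and 8.48 with E2, 8.92 and 9.47 with ketamine, 8.52 and 7.84 with (2S,6S)-HNK, 7.28 and 8.88 with (2R,6R)-HNK, 6.35 and 5.97 with E2+ketamine, 9.55 and 10.5 with E2+(2R,6R)-HNK, and 9.85 and 8.77 with E2+(2S,6S)-HNK. Vehicle was the lowest, E2+ketamine lay just above it, and the other treatments were higher, with E2+(2R,6R)-HNK on top. Its rises ran from 0.38 ± 0.12 with E2+ketamine to 1.08 ± 0.11 with E2+(2R,6R)-HNK (edgeR adjusted p = 1.0e-12), and the former was not called without vehicle replicate 2 (0.21). The corrected log2 fold changes of COL9A3 lay between -0.35 and 0.64, with 4 called as rises and 1 as falls. COL9A2, another type IX chain, was at 0.997 and 0.654 CPM with vehicle and rose with all treatments but E2 (edgeR adjusted p = 0.0643 there), by 0.69 ± 0.25 with (2R,6R)-HNK to 1.37 ± 0.24 with E2+(2R,6R)-HNK, and in 4 of the 7 after the correction. Without vehicle replicate 2 the rises with (2R,6R)-HNK (0.42) and E2+ketamine (0.56) were not called, nor were they without (2R,6R)-HNK replicate 1 (0.64) and E2+ketamine replicate 2 (0.65), respectively. COL16A1, a FACIT collagen found with several fibril types, was at 6.41 and 6.23 CPM with vehicle, 7.88 and 7.6 with E2, 6.74 and 6.37 with ketamine, 4.05 and 4.78 with (2S,6S)-HNK, 6.93 and 6.64 with (2R,6R)-HNK, 6.35 and 6.29 with E2+ketamine, 3.65 and 4.16 with E2+(2R,6R)-HNK, and 4.74 and 4.23 with E2+(2S,6S)-HNK. The libraries with (2S,6S)-HNK, E2+(2S,6S)-HNK and E2+(2R,6R)-HNK lay below all others, and E2 gave the highest pair. COL16A1 fell by 0.69 ± 0.11 with E2+(2R,6R)-HNK (edgeR adjusted p = 2.91e-07), fell by 0.51 ± 0.11 with (2S,6S)-HNK and fell by 0.49 ± 0.11 with E2+(2S,6S)-HNK. Its rise of 0.29 ± 0.11 with E2 was not called without E2 replicate 1 (0.26) or vehicle replicate 2 (0.27). After the GC and length correction, COL16A1 rose in 0 and fell in 6 of the 7 comparisons, at -1.24 to -0.12.

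COL13A1, a transmembrane collagen of cell contacts such as the neuromuscular junction, was at 2.78 and 2.65 CPM with vehicle and 6.26 and 6.58 with E2+(2S,6S)-HNK. It rose with ketamine (0.67 ± 0.13), (2S,6S)-HNK (1.0 ± 0.14), E2+ketamine (0.49 ± 0.14), E2+(2R,6R)-HNK (1.20 ± 0.13) and E2+(2S,6S)-HNK (1.24 ± 0.13, edgeR adjusted p = 1.14e-11), while E2 and (2R,6R)-HNK overlapped vehicle. After the correction 4 of these 5 rises were called, that with E2+ketamine being the exception. COL17A1, the collagen of hemidesmosomes, at 0.857 to 1.70 CPM, and COL25A1, a transmembrane collagen known from amyloid plaques, at 3 to 23 counts, were called in none. COL26A1 had 10 and 8 counts in the vehicle libraries (0.164 and 0.134 CPM) and reached 1.49 and 1.23 CPM with E2+(2R,6R)-HNK and 1.15 and 1.19 with (2S,6S)-HNK. Every library of every treatment was above both vehicle libraries, and the rises of 1.71 ± 0.47 to 3.17 ± 0.41 in all treatments but E2 (1.06 ± 0.50, edgeR adjusted p = 0.0644) rest on few counts. With the correction, 5 of these 6 rises were called, and that with E2+ketamine was not (0.97).

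The drugs were compared with each other at the same dose and time, in 3 pairs without E2 and 3 with it. Adjusting p-values over all 6 pairs together instead of within each changed the call of 0 of the collagen genes. Between ketamine and (2R,6R)-HNK, 18 of the 31 collagen genes differed (background 45.4%), 13 higher with ketamine and 5 lower (background 22.8% and 22.6%), and 11 and 3 after the correction (14.6% and 24.2%). COL4A4 (1.0 ± 0.11, ketamine minus (2R,6R)-HNK, log2 ± SE) and COL4A3 (1.0 ± 0.38) were the furthest above, and COL11A2 (-0.45 ± 0.18) and COL8A1 (-0.27 ± 0.03) the furthest below. The 5 type IV genes that differed, COL4A1, COL4A2, COL4A3, COL4A4 and COL4A5, were all higher with ketamine, but only 1 of the 6, COL4A4, after the correction, which also ended the call of COL11A2 (-0.35). COL12A1 was also higher with ketamine (0.45 ± 0.04, edgeR adjusted p = 4.43e-13, 0.23 corrected), and COL1A1 and COL1A2 were lower (-0.23 ± 0.02 and -0.23 ± 0.03, -0.17 and -0.40 corrected). COL6A1 did not pass the test, with a difference of 0.01 and a 95% interval of -0.05 to 0.07, but was higher with ketamine after the correction (0.15). COL11A2 was not called without (2R,6R)-HNK replicate 2 (-0.33) or ketamine replicate 1 (-0.23), and COL4A3 not without (2R,6R)-HNK replicate 2 (0.73) or either ketamine library (1.03 and 0.96).

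Between ketamine and (2S,6S)-HNK, 17 differed (background 46.1%), 5 higher and 12 lower with ketamine (background 22% and 24.2%), and 9 and 12 after the correction (17.6% and 23.6%). COL16A1 (0.57 ± 0.11) and COL4A4 (0.47 ± 0.11) were the furthest above with ketamine, and COL26A1 (-0.92 ± 0.32) and COL8A1 (-0.87 ± 0.03, edgeR adjusted p = 6.97e-32) the furthest below. COL26A1 was not called without (2S,6S)-HNK replicate 2 (-0.90) or ketamine replicate 2 (-0.62). COL1A1, with a difference of 0.03 (95% interval -0.02 to 0.08), and COL8A2, with -0.12 (-0.23 to -0.01, not adjusted for the number of genes), did not pass the test, and corrected COL1A1 was higher with ketamine (0.15).

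The mirror-image metabolites differed in 21 of the 31 genes (background 43.5%), of which 16 were lower with (2R,6R)-HNK and 5 higher (background 22.4% and 21.0%), and 16 and 7 after the correction (20.3% and 24.5%). All 6 type IV genes were lower with (2R,6R)-HNK, with and without the correction, from -0.29 ± 0.02 for COL4A1 to -1.11 ± 0.39 for COL4A3, and so were both type VIII genes, COL8A1 (-0.61 ± 0.03) and COL8A2 (-0.43 ± 0.06). COL11A1 was at 76.4 and 78.8 CPM with (2R,6R)-HNK and 165 and 163 with (2S,6S)-HNK, a 2.11-fold gap (-1.08 ± 0.03, edgeR adjusted p = 4.90e-30), and -1.02 corrected. The members furthest apart were the scarce COL25A1 (-1.90 ± 0.77) and COL4A3 below, and COL16A1 (0.62 ± 0.11) and COL1A2 (0.57 ± 0.03, edgeR adjusted p = 2.73e-21) above. COL25A1 was not called without any 1 of the 4 libraries (-1.95 to -1.84), nor COL4A3 without (2R,6R)-HNK replicate 2 (-0.85) or (2S,6S)-HNK replicate 2 (-0.98). COL12A1, which fell with both, did not pass the test between them (-0.01, 95% interval -0.10 to 0.08).

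In the presence of E2, ketamine and (2R,6R)-HNK differed in 20 genes (background 52.0%), 17 lower and 3 higher with ketamine (background 26.7% and 25.3%). Corrected, these were 20 and 4 (22.3% and 28.2% of all genes). COL26A1 (-1.46 ± 0.34), COL11A1 (-1.39 ± 0.04, edgeR adjusted p = 6.23e-35) and COL8A1 (-1.31 ± 0.03) were the furthest below with E2+ketamine, and COL16A1 (0.70 ± 0.11) and COL1A1 (0.21 ± 0.02) the furthest above. E2+ketamine and E2+(2S,6S)-HNK differed in 20 (background 66.8%), 15 lower and 5 higher with ketamine (background 35.0% and 31.7%), and 19 and 3 corrected (25.0% and 30.7%). COL11A1 (-1.61 ± 0.03, edgeR adjusted p = 4.13e-38) and COL8A1 (-1.28 ± 0.03) were the furthest below and COL1A2 (0.53 ± 0.03) and COL16A1 (0.49 ± 0.11; 0.14 and not called with the correction) the furthest above. The 2 metabolites with E2 differed in the fewest, 13 (background 54.0%), with 12 higher and 1 lower with (2R,6R)-HNK (background 29.1% and 25.0%), and 6 and 3 corrected (17.5% and 12.1%). COL6A3 (0.91 ± 0.32) and COL6A1 (0.32 ± 0.03) were the furthest above and COL11A1 (-0.22 ± 0.03, edgeR adjusted p = 6.01e-08) the only one below; COL6A3 was not called without E2+(2S,6S)-HNK replicate 2 (0.78), and COL6A1 was at 0.04 and not called with the correction. COL8A1, which separated the metabolites without E2, did not pass the test between them with E2 (0.03, 95% interval -0.02 to 0.08), but corrected it was higher with (2R,6R)-HNK (0.16). In each of the 6 pairs the share of collagen genes called is read against the background printed beside it: 58.1%, 54.8%, 67.7%, 64.5%, 64.5% and 41.9% of the members, in the order given.

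Whether the effect of a drug differed with E2 was tested as an interaction, the change from E2 to E2+drug minus the change from vehicle to drug. For ketamine, 18 genes had an interaction (58.1%, background 37.5%), and all 18 were negative (background 13.1%), with 13 negative and 1 positive after the correction (background 11.8% and 25.0%). COL4A3 (-1.5 ± 0.58, edgeR adjusted p = 0.035) and COL9A3 (-1.38 ± 0.15, 1.88e-10) had the largest, followed by COL8A2 (-1.29 ± 0.08, 1.06e-17). COL8A2 shows what this means: from 10.4 and 11.5 CPM it rose to 28.8 and 29.5 with ketamine, whereas from 22.9 and 23.5 with E2 it went to 25.6 and 24.7 with E2+ketamine. COL4A3 was not called without E2 replicate 1 (-1.18), E2+ketamine replicate 2 (-1.34), either ketamine library (-1.54 and -1.46) or vehicle replicate 1 (-1.22), nor with the correction (-1.40).

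For (2R,6R)-HNK, 20 had an interaction (64.5%, background 56.6%), 11 positive and 9 negative (background 31.5% and 25.2%), and 12 and 5 corrected (21.7% and 21.8%). COL11A1 had the largest positive value (1.63 ± 0.05, edgeR adjusted p = 2.66e-31): (2R,6R)-HNK lowered it from 106 and 113 to 76.4 and 78.8 CPM, and in the presence of E2 it went from 86.1 and 80.0 to 182 and 182. COL13A1 (1.20 ± 0.20) and COL8A1 (0.91 ± 0.04) followed, and 5 of the 6 type IV genes, all but COL4A3, were positive. On the negative side were COL5A3 (-1.21 ± 0.37) and COL16A1 (-1.09 ± 0.15, edgeR adjusted p = 2.06e-08), then COL11A2 and COL1A2 (-0.82 ± 0.04); corrected, COL5A3 (-0.85) and COL11A2 (-0.51) were not called. For (2S,6S)-HNK, 16 had one (51.6%, background 65.1%), 13 negative and 3 positive (background 32.2% and 32.9%), but 6 and 7 with the correction (20.7% and 19.6%), and the median of the members moved from -0.55 to 0.04. COL5A3 (-1.19 ± 0.38) and COL8A2 (-1.19 ± 0.08, edgeR adjusted p = 1.07e-17) were the most negative, and COL11A1 (0.78 ± 0.05) and COL12A1 (0.59 ± 0.06, 2.40e-12) the most positive. Corrected, COL11A1 was at 0.48, COL12A1 at 0.14 (adjusted p = 0.0399 in edgeR), COL8A2 at -0.53 and COL5A3, no longer called, at -0.52. COL11A1 rose with (2S,6S)-HNK both with and without E2, and COL8A2, as with ketamine, moved less from the level that E2 alone had given.

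Collagen chains are hydroxylated, glycosylated and folded in the endoplasmic reticulum, secreted, trimmed at their ends and cross-linked outside the cell, and read by receptors, and 3 lists of the genes for these steps were examined with the same fit. The background shares are those printed above for each comparison. Of 25 genes for biosynthesis, all tested, the numbers that rose and fell were 12 and 8 with E2, 11 and 7 with ketamine, 14 and 8 with (2S,6S)-HNK, 14 and 7 with (2R,6R)-HNK, 14 and 10 with E2+ketamine, 14 and 7 with E2+(2R,6R)-HNK and 12 and 7 with E2+(2S,6S)-HNK. Corrected, they were 8 and 7, 7 and 7, 9 and 7, 12 and 5, 12 and 7, 12 and 5 and 10 and 10 in the same order. Under the drugs given alone the largest called rises were those of COLGALT2, a galactosyltransferase for collagen hydroxylysine (1.14 ± 0.18 with (2S,6S)-HNK, 1.18 corrected), and LEPREL2, a prolyl hydroxylase gene also named P3H3 (0.75 ± 0.04 with (2R,6R)-HNK, 0.21 corrected). PLOD2, the lysyl hydroxylase of collagen ends, fell by 1.12 ± 0.03 with (2S,6S)-HNK (edgeR adjusted p = 4.09e-36, -0.53 corrected), and P4HA1, a catalytic subunit of prolyl hydroxylase, fell by 0.85 ± 0.03 with (2R,6R)-HNK (-0.34 corrected).

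Of 15 genes for cleavage and cross-linking, 13 were tested, and 8 and 5 with E2, 8 and 4 with ketamine, 7 and 2 with (2S,6S)-HNK, 8 and 4 with (2R,6R)-HNK, 8 and 3 with E2+ketamine, 7 and 2 with E2+(2R,6R)-HNK and 9 and 2 with E2+(2S,6S)-HNK rose and fell, respectively. Corrected, the numbers were 5 and 3, 9 and 2, 8 and 2, 6 and 3, 6 and 1, 8 and 2 and 7 and 2. Under the drugs given alone, the largest rises were those of ADAMTS14, a procollagen N-proteinase (0.95 ± 0.13 with ketamine, 0.56 corrected), and PCOLCE, an enhancer of the C-proteinase (0.92 ± 0.11 with (2S,6S)-HNK, 0.38 corrected). ADAMTS3, another N-proteinase, fell by 1.27 ± 0.08 with (2S,6S)-HNK (-0.87 corrected), and TLL2, a tolloid-like proteinase at 4.64 CPM with vehicle, fell by 1.14 ± 0.15. ADAMTS2, of the same group, rose by 0.79 ± 0.06 with (2S,6S)-HNK (0.35 corrected). Of 12 receptor genes, 11 were tested, with 4 and 2 with E2, 4 and 2 with ketamine, 3 and 2 with (2S,6S)-HNK, 4 and 3 with (2R,6R)-HNK, 3 and 2 with E2+ketamine, 3 and 3 with E2+(2R,6R)-HNK and 3 and 3 with E2+(2S,6S)-HNK rising and falling, and 3 and 1, 5 and 2, 3 and 2, 2 and 1, 4 and 2, 4 and 4 and 3 and 3 after the correction. MRC2, the endocytic receptor for collagen, rose by 1.21 ± 0.04 with (2S,6S)-HNK (0.65 corrected), and ITGA11, the α chain of a collagen-binding integrin, by 0.86 ± 0.06 (0.80). ITGB1, the β1 chain that partners it, fell by 1.01 ± 0.02 with (2R,6R)-HNK (edgeR adjusted p = 1.39e-36, -0.51 corrected), and ITGA1, at 1.58 CPM with vehicle, fell by 0.58 ± 0.23 (0.08 corrected, not called).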

How the data were processed

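RNA of HMC3 cells, in 16 libraries, was amplified with an RNA-seq kit and sequenced as paired reads. The deposited table held raw counts per gene symbol, which the authors obtained from paired reads with TopHat2 2.0.14, Bowtie2 2.2.6 and featureCounts 1.4.6 according to the submitters' processing notes, with hg19 gene models. No normalization was applied to these counts by the authors, and the strand setting is not given in the sources used here.

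All 16 libraries were fitted together, with a mean for each of 8 conditions, by edgeR 4.0.16 (quasi-likelihood test, TMM, filterByExpr) in R 4.3.3, with Benjamini-Hochberg adjustment of p-values over the 16004 genes tested in each of 16 comparisons. CPM were computed on TMM library sizes. The ranking of the most abundant collagen genes, the class sums and the chain ratios were taken per kilobase of the annotated main transcript. Other levels, shares, medians and marker sums are in plain CPM or counts. GC content and exon length came from an annotation on GRCh37, in which 21539 symbols matched directly, 1493 by an older symbol and 2338 not. Each library was corrected by loess fits (span 0.5) on GC content and length. On data simulated for ketamine against vehicle with 200 of 16004 genes changed by 1.5 on the log2 scale, the test recovered 99.5% with 2 false calls. With a GC trend added it recovered 85.5% with 259 false calls, and 100% with 3 after the correction. In these runs a call needed an adjusted p under 0.05 and also a log2 fold change of at least 1. They therefore do not give the rate of false calls at an adjusted p under 0.05 alone, the criterion used above. The added trend was made from the same GC values that the correction fits, so its removal was built in.

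Members that averaged 5 CPM or more are given library by library, and for each comparison the 2 largest called changes in each direction are named, together with partner chains of a trimer. The members and the gene lists were chosen with earlier results of these data known. Alternatives were DESeq2 1.42.0 (the study's tool, with default settings), a fit to the groups compared only, other filters, upper-quartile scaling, the replicate number as a block, the correction with and without that block, halved counts, and each library left out in turn. Promoter sequences came from RefSeq on GRCh38.p14.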

Additional observations from a re-analysis of the deposited data

Results flagged for a closer look

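The effect of a drug differed with and without E2, by the test of the interaction itself, in 16 collagen genes for (2S,6S)-HNK, 18 for ketamine and 20 for (2R,6R)-HNK. For ketamine the largest interactions were those of COL4A3 (-1.5 on the log2 scale) and COL9A3 (-1.38). For (2R,6R)-HNK they were those of COL11A1 (1.63), COL13A1 (1.20), COL5A3 (-1.21) and COL16A1 (-1.09). For (2S,6S)-HNK they were those of COL11A1 (0.78), COL12A1 (0.59), COL5A3 (-1.19) and COL8A2 (-1.19). Of all genes, 37.5% had such an interaction for ketamine and 56.6% for (2R,6R)-HNK, beside 58.1% and 64.5% of the collagen genes. For (2S,6S)-HNK the share of all genes, 65.1%, is above that of the collagen genes, 51.6%. Corrected for GC content and length, the collagen genes with an interaction numbered 13 for (2S,6S)-HNK, 14 for ketamine and 17 for (2R,6R)-HNK. With the GC and length correction, the interactions of COL4A3 for ketamine (-1.4) and of COL5A3 for (2R,6R)-HNK (-0.85) and (2S,6S)-HNK (-0.52) were no longer called, that of COL11A1 for (2S,6S)-HNK was 0.48, that of COL12A1 for it was 0.14, and that of COL8A2 for (2S,6S)-HNK was -0.53.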

How the results depend on the processing

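With the GC and length correction, which was applied with and without the replicate block, the collagen genes that fell against vehicle numbered 5 with E2, 8 with ketamine, 10 with (2R,6R)-HNK, 6 with (2S,6S)-HNK, 15 with E2+ketamine, 6 with E2+(2R,6R)-HNK and 5 with E2+(2S,6S)-HNK, each over 1.5 times the count without it, and those that rose numbered 7 with (2R,6R)-HNK and 3 with E2+ketamine. The other counts of risen, fallen and differing genes stayed within 1.5 times the reported ones under DESeq2, a fit to the groups compared only, no filter or a minimum of 10 counts in every library, upper-quartile scaling, the replicate block and halved counts. Of 267 values for single genes (every collagen gene against vehicle, and the differences and interactions printed), 43 changed direction with the correction, with log2 fold changes that became: COL1A1 (-0.00088 with E2, -0.26 with ketamine, -0.092 with (2R,6R)-HNK, -0.41 with (2S,6S)-HNK, -0.22 with E2+ketamine, -0.37 with E2+(2R,6R)-HNK), COL4A1 (0.064 with E2+(2S,6S)-HNK), COL5A2 (0.082 with (2R,6R)-HNK), COL8A1 (0.13 with E2, 0.11 with (2R,6R)-HNK), COL6A2 (-0.15 with E2, -0.20 with (2R,6R)-HNK, -0.20 with E2+ketamine), COL5A1 (-0.098 with E2+ketamine), COL6A1 (-0.075 with E2, -0.023 with ketamine, -0.18 with (2R,6R)-HNK, -0.32 with E2+ketamine), COL18A1 (-0.15 with E2, -0.31 with ketamine, -0.27 with (2R,6R)-HNK, -0.41 with (2S,6S)-HNK, -0.54 with E2+ketamine, -0.45 with E2+(2R,6R)-HNK), COL11A1 (0.10 with ketamine), COL7A1 (-0.13 with (2R,6R)-HNK, -0.32 with (2S,6S)-HNK, -0.41 with E2+ketamine, -0.27 with E2+(2R,6R)-HNK), COL4A5 (0.31 with (2R,6R)-HNK), COL27A1 (-0.094 with E2, -0.16 with ketamine, -0.17 with (2R,6R)-HNK, -0.38 with (2S,6S)-HNK, -0.38 with E2+ketamine, -0.22 with E2+(2R,6R)-HNK, -0.14 with E2+(2S,6S)-HNK), COL9A3 (-0.35 with E2+ketamine), COL16A1 (-0.12 with E2, -0.32 with ketamine, -0.34 with (2R,6R)-HNK, -0.61 with E2+ketamine) and COL11A2 (-0.077 with E2+(2R,6R)-HNK). The replicate block on top of the correction gave the same values to the digits shown, except COL1A1 with E2 (-0.000773) and COL11A2 with E2+(2R,6R)-HNK (-0.076). These 43 values were each called before the correction, after it, or both. Values called in neither that changed sign were not counted among the 43. Examples are COL5A3 with (2S,6S)-HNK (0.27, and -0.27 corrected) and COL15A1 with E2+ketamine (0.12, and -0.19 corrected). Another 24 of the 267 values lost their call and 12 gained one. The relation with GC content moved with these changes, and its cause was not tested. The fit to the groups compared only, which moved the median of all genes with E2+(2S,6S)-HNK by 0.072, turned COL4A1 there to 0.070. Upper-quartile scaling, which moved that median by 0.062 to 0.10 against vehicle, turned COL4A1 with E2+(2S,6S)-HNK to 0.10 and COL5A2 with (2R,6R)-HNK to 0.068. These moves are of the size of the shift of all genes, and neither gene was called there before. DESeq2 ended 8 calls, those of COL4A3 for E2+(2S,6S)-HNK, ketamine minus (2R,6R)-HNK and the ketamine interaction, of COL1A1 for both (2S,6S)-HNK treatments, of COL11A2 for ketamine minus (2R,6R)-HNK, of COL6A3 for E2+ketamine and of COL25A1 between the metabolites. Upper-quartile scaling ended 3 (COL1A1 with E2+(2S,6S)-HNK, COL4A1 with ketamine, COL6A3 with E2+ketamine), the fit to the groups compared 2 (COL4A6 and COL6A3 with E2+ketamine), and no filter and halved counts 1 each (COL4A6 with E2+ketamine). These settings added 3, 13, 9, 6 and 2 calls, and the minimum of 10 counts ended 0 of 250 and added 5.

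Leaving out 1 library of a comparison in turn gave 12 to 16 risen collagen genes with E2, 15 to 18 with ketamine, 12 to 13 with (2R,6R)-HNK, 18 to 22 with (2S,6S)-HNK, 12 to 14 with E2+ketamine, 21 to 23 with E2+(2R,6R)-HNK and 16 to 17 with E2+(2S,6S)-HNK; a condition left with a single library is assumed to vary like the others. Of 189 called values for single genes, 162 kept direction and call with each library left out, and 1 changed sign, COL1A1 with (2S,6S)-HNK, which ranged from -0.0054 to 0.12. The labels give the same replicate numbers in all conditions, but libraries of the same number did not deviate together. The correlation was -0.026 to 0.045 over 28 pairs of conditions, and -0.147 to 0.0874 when limited to genes whose average log2 CPM exceeded 2. Whether libraries of the same number were cultured or handled together cannot be told from these values. With the replicate block, 14 genes rose and 6 fell with E2+ketamine and 16 rose and 3 fell with E2+(2S,6S)-HNK, the genes no longer called being COL4A6 and COL4A3, respectively, the counts against vehicle with the other 5 treatments were those reported, and 265 of 267 single values kept their call. With 2 libraries a condition and 8 residual degrees of freedom, the scarce genes COL4A3 and COL25A1 carry standard errors of 0.40 to 0.45 and of 0.62 to 0.78 against vehicle, while those of COL1A1 are 0.02.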
